A study of Homo sapiens with 6 samples.

Results

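Long noncoding and antisense RNAs are transcripts without a known protein product, and many are named for where they lie: between genes (LINC), on the opposite strand of a gene (-AS), from a shared promoter in the other direction (-DT) or inside an intron (-IT1). The members were taken by name from the array's annotation: symbols that start with LINC or SNHG, symbols that end in -AS and a digit, -IT1 or -DT, and DANCR, MALAT1, NEAT1, GAS5, H19, MEG3, TUG1, EPB41L4A-AS1 and HOTAIR. The annotation listed 1861 such genes with a probe set of their own, a probe set being a group of short oligonucleotides that read the same transcript. Members were chosen by name and selected on measured signal, through a filter on low values that used all 6 arrays. Of the 1861, 767 passed it, out of 14174 genes tested in all, and each was read by its brightest probe set.

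The RNA came from MDA-MB-231, a line of human breast cancer cells of the triple-negative type, grown in L-15 medium with serum. In 3 samples the cells carried a stable shRNA (short hairpin RNA) to MYOSIN10, today's MYO10, and in 3 a stable scramble shRNA, each sample on 1 array. MYO10 encodes a motor protein found at the tips of filopodia. Both groups carry a stably expressed hairpin, and the labels do not say how many hairpin sequences, clones or separate cultures lie behind the samples. Each p-value thus reflects only how far these samples spread, and that spread may be technical.

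MALAT1 is a nuclear RNA that gathers at speckles, where splicing factors are stored, and is abundant in many cell lines. SNHG genes, GAS5, DANCR and EPB41L4A-AS1 carry small nucleolar RNAs (snoRNAs) in their introns, which guide the chemical modification of ribosomal and other RNAs, and the spliced exons of several hosts are cleared by nonsense-mediated decay. Antisense and divergent RNAs often share a promoter with, or overlap, a protein-coding gene, here called the partner gene.

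Across the series, the arrays correlated at 0.978 to 0.987 over the genes tested. On the first principal component, scramble array 2 lay at 4.45, apart from scramble arrays 1 and 3 at -28.0 and -25.7 and below the MYOSIN10 shRNA arrays at 14.5 to 20.1, and on the second component the arrays numbered 2 of both groups lay together at -23.7 and -19.9. All values are log2(signal + 16), where signal is the deposited value on its linear scale, and every fold change is MYOSIN10 shRNA over scramble shRNA. MYO10 had 11.57, 11.96 and 11.86 on the scramble arrays and 10.70, 11.39 and 10.64 on the MYOSIN10 shRNA arrays, a log2 fold change of -0.88 ± 0.18 (SE, n = 3 each; limma adjusted p = 0.0303) that left 54.2% of the scramble level. Of its 5 probe sets, 4 had negative values, and a dim one stood at 0.31. Markers of the line were present, with vimentin (VIM) at 14.69 to 14.90 and CD44 at 14.47 to 14.62, although SPARC was low at 5.85 to 6.99. Of 7 luminal markers, PGR, CDH1 and FOXA1 did not pass the filter, ESR1 lay at 6.62 to 7.33, GATA3 at 9.82 to 10.38 and ERBB2 at 8.84 to 9.11. EPCAM lay at 7.34 to 8.55 with scramble shRNA and 8.65 to 8.90 with MYOSIN10 shRNA (limma adjusted p = 0.159), and its part in the results was not tested. Among blood and endothelial markers, PTPRC and CDH5 did not pass, and CD3E and PECAM1 lay between 4.46 and 7.15. In bulk samples, fewer cells with an RNA and less of it per cell cannot be told apart.

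As a set the members were dim. The median member had a mean of 6.25 over the 6 arrays, against 8.97 for the median gene tested, and 55 members (7.17%) reached that second level. Passing the filter meant a signal that reached the 40th percentile of its array on 3 or more arrays, which 41.2% of the listed members and 74.8% of the 17914 other listed genes did. Of the 767, 424 reached it on all 6 arrays, 97 on 5, 112 on 4 and 134 on 3. For 9 members, those 3 arrays were exactly 1 group (6 in MYOSIN10 shRNA and 3 in scramble shRNA), so these 9 had to differ. Just inside the threshold lay LINC00942, LINC01115 and LINC02843, with means of 5.70, 5.11 and 5.17, and just outside lay LINC02504, LINC02186 and PFKP-DT, with 5.41, 5.11 and 5.57. HOTAIR, an RNA from the HOXC cluster, reached it on 0 arrays, with values from 4.09 to 4.88. NEAT1 and H19 were not analysed here, and 132 probe sets that list a rule symbol beside other symbols were not used. The median replicate SD was 0.344 for members and 0.178 for all genes tested.

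At a Benjamini-Hochberg adjusted p under 0.05 over all genes tested (limma), MALAT1 rose, and DANCR and SERTAD4-AS1 fell. These 3 were 0.391% of the members, and over all genes 1.62% were called (1.16% higher and 0.459% lower). Among the 7087 genes at or above the median signal, a split chosen after seeing the data, all 3 were found among 55 members, which is 5.45%, beside 2.65% of all genes in that range (1.86% higher and 0.79% lower). The values that chose the members include signal, and the members were picked with results of the same contrast known, so these shares are a description.

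The sequence around each start is shown because the 3 called RNAs begin in different kinds of sequence. Each window runs from 250 bases before to 50 bases after a RefSeq start on GRCh38.p14, written along the RNA's own strand. Capitals mark CCAAT boxes (CCAAT, or ATTGG when read from the other strand) and TATA boxes (TATAAA, or TTTATA from the other strand). RefSeq lists 2 starts for MALAT1.
MALAT1 first start, chr11:65497488-65497787, plus strand: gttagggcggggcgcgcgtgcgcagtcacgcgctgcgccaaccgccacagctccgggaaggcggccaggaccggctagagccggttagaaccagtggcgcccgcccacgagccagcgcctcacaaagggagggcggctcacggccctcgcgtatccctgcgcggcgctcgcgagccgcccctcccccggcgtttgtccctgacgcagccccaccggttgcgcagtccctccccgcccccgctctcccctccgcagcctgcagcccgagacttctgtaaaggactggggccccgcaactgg
MALAT1 second start, chr11:65498795-65499094, plus strand: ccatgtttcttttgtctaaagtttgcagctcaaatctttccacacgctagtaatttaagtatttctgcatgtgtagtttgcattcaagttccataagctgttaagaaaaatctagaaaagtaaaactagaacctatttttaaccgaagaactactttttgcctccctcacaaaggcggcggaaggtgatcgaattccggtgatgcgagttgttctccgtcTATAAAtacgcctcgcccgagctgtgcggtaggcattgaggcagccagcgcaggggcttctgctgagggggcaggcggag
DANCR, chr4:52712144-52712443, plus strand: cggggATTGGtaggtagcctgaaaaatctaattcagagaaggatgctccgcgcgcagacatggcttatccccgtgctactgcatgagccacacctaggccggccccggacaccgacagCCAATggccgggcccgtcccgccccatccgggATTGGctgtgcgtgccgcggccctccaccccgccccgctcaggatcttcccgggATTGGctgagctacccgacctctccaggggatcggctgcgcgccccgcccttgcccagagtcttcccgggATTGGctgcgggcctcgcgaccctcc
SERTAD4-AS1, chr1:210233836-210234135, minus strand: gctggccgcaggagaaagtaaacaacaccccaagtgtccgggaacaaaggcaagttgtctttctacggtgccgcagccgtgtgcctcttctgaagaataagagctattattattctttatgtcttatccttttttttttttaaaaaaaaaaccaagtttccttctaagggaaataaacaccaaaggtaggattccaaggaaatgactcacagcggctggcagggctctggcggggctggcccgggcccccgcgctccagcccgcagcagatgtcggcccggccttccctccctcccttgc

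The DANCR window held 5 CCAAT boxes over both strands and no TATA box. Of the 35116 windows in the RefSeq table, 34.6% held at least 1 CCAAT box and 0.991% held 4 or more. The second MALAT1 window carried 1 TATA box, a motif in 11.5% of all windows, with a GC content of 46%. The first MALAT1 window carried neither motif and had 37 CpG dinucleotides, against a median of 14 over the table. SERTAD4-AS1 had neither motif and a GC content of 52%. A CCAAT box was found for 36.8% of the 576 members in the table and 36.4% of 10797 other genes tested, and a TATA box for 9.55% and 6.32%. Matches of letters in a window are not measured sites.

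MALAT1 read 12.23, 12.13 and 11.93 on the scramble arrays and 12.51, 12.59 and 12.74 on the MYOSIN10 shRNA arrays. Every MYOSIN10 shRNA array lay above every scramble array. The log2 fold change was 0.52 ± 0.093 (SE, n = 3 each; limma adjusted p = 0.0174), to 143% of the scramble level, in the second brightest member. The array has 12 kept probe sets for MALAT1, and all 12 had positive log2 fold changes, from 0.14 to 0.81 with a median of 0.49. Groups did not overlap in 4 of them, 6 had an unadjusted p under 0.05, and 2 passed when probe sets were tested one by one. They read the same RNA in the same samples and are not replicates of the condition. Of the 12, 11 are of the _s_at or _x_at kind, whose oligonucleotides may match other transcripts too. The single probe set of the plain _at kind stood at 0.81, but its groups overlapped and its limma adjusted p was 0.201 when it represented the gene.

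**Figure D1:**
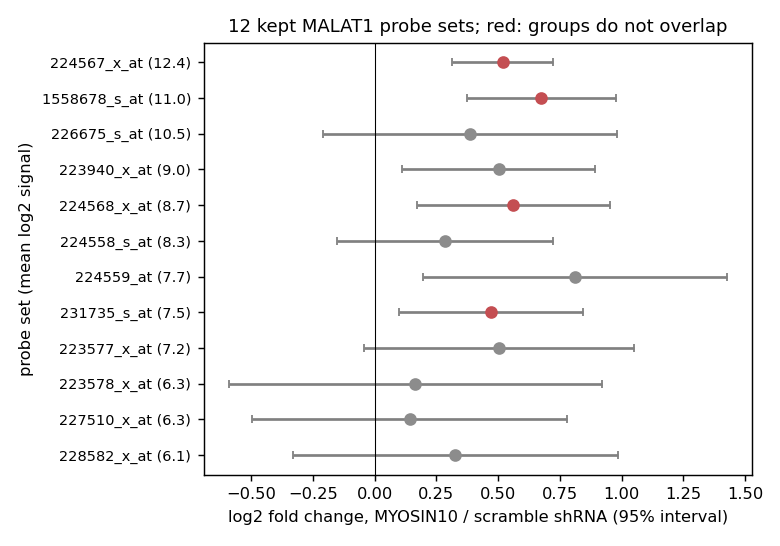
Log2 fold change (MYOSIN10 shRNA over scramble shRNA, horizontal axis) of the 12 kept MALAT1 probe sets (vertical axis, mean log2 signal in brackets), with 95% intervals from limma and red points where the groups do not overlap. All 12 points lie right of 0, and the interval includes 0 for 6 of them.

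DANCR hosts a snoRNA and is known for holding back the differentiation of progenitor cells. It read 12.41, 11.66 and 12.49 on the scramble arrays and 11.42, 11.20 and 11.45 on the MYOSIN10 shRNA arrays. Scramble array 2 was the lowest of its group and still lay above all 3 MYOSIN10 shRNA arrays. DANCR fell by 0.83 on the log2 scale (SE 0.18, n = 3 each; limma adjusted p = 0.0434), to 56.3% of the scramble level. A single kept probe set reads DANCR. Without scramble array 2 the log2 fold change was -1.09 (limma adjusted p = 6.51e-05), and without any other single array the call ended (limma adjusted p from 0.106 to 0.215).

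SERTAD4-AS1 is transcribed opposite to SERTAD4, a gene for a SERTA domain protein, and the nearest RefSeq starts lie 1089 bases apart. Its values were 10.43, 9.72 and 10.21 with scramble shRNA and 9.12, 9.25 and 9.33 with MYOSIN10 shRNA. The groups did not overlap, and scramble array 2 was again the lowest of its group. SERTAD4-AS1 fell by 0.89 on the log2 scale (SE 0.16, n = 3 each; limma adjusted p = 0.0187), to 54.1% of the scramble level. SERTAD4 itself stood at -0.32 by its brightest probe set (limma adjusted p = 0.292). All 4 kept SERTAD4 probe sets had negative values, from -0.72 to -0.28, and in each the groups did not overlap.

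Single arrays decided these calls. MALAT1 was still called without scramble array 1 or 2 or MYOSIN10 shRNA array 2, and SERTAD4-AS1 without scramble array 2 or MYOSIN10 shRNA array 2. By limma, 0 members were called when scramble array 3 or either of the MYOSIN10 shRNA arrays 1 and 3 was left out, and 1 (MALAT1) without scramble array 1. Over all genes, these runs called 0.557%, 0.466%, 0.571% and 0.55% in that order. Without scramble array 2, 25 members were called, 7 higher and 18 lower, which is 3.26% of the members beside 6.80% of all genes. DANCR, SERTAD4-AS1 and MALAT1 were among the 25, with LOXL1-AS1 at 1.24 (limma adjusted p = 0.000909), AFAP1-AS1 at -0.84 (0.00231), LINC00899 at -1.52 (0.00243) and NNT-AS1 at 0.86 (0.00317).

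**Figure D2:**
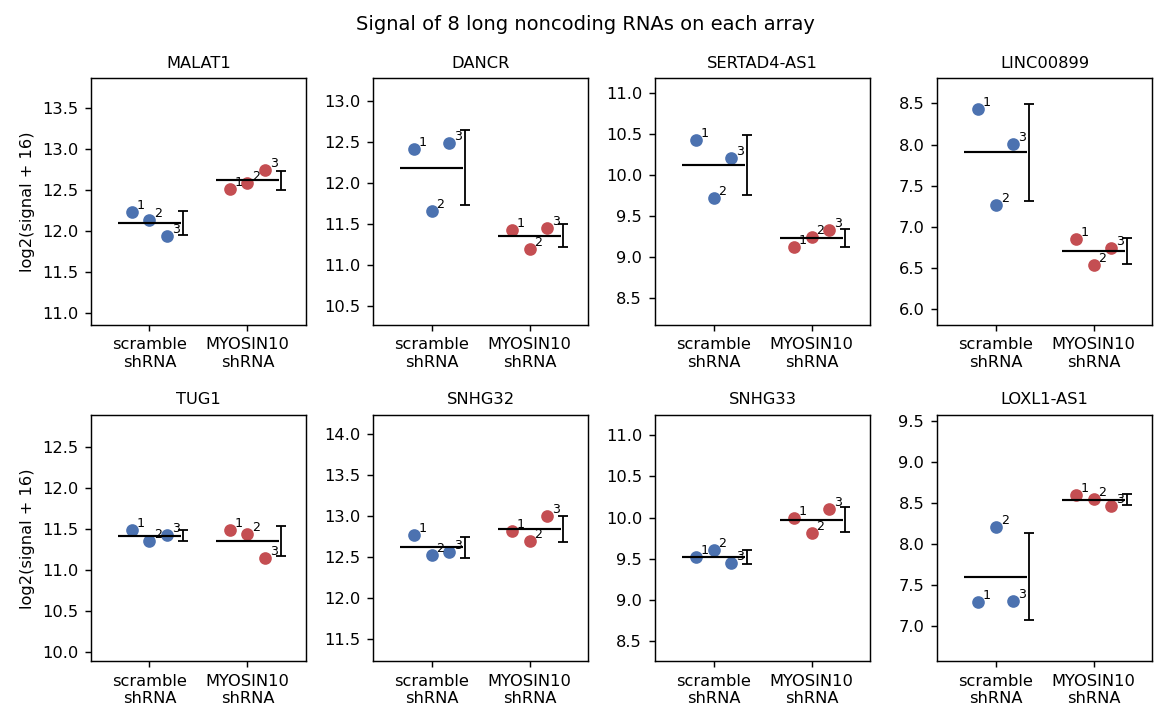
Log2(signal + 16) of 8 members on each array (vertical axis, each panel 3 units high), with arrays numbered within each group, horizontal lines for group means and bars for 1 SD (n = 3). MALAT1, DANCR and SERTAD4-AS1 are the called members. Scramble array 2 is the scramble array nearest to the MYOSIN10 shRNA mean in DANCR, SERTAD4-AS1, LINC00899, TUG1, SNHG33 and LOXL1-AS1.

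LINC00899 and LOXL1-AS1 came near the threshold with all 6 arrays. LINC00899, an intergenic RNA, read 8.44, 7.27 and 8.01 on the scramble arrays and 6.85, 6.53 and 6.74 on the MYOSIN10 shRNA arrays. The groups did not overlap, and its log2 fold change was -1.20 ± 0.27 (SE, n = 3 each; limma adjusted p = 0.0546). LOXL1-AS1, antisense to a lysyl oxidase-like gene whose enzyme acts on elastin, read 7.29, 8.21 and 7.31 and then 8.59, 8.55 and 8.46. The groups did not overlap, and the value was 0.93 ± 0.23 (SE, n = 3 each; limma adjusted p = 0.0701), beside 0.48 for LOXL1 (limma adjusted p = 0.305).

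The snoRNA hosts had a median mean signal of 9.01, and 12 of 14 listed hosts passed the filter. The LINC, antisense, divergent and intronic classes had medians of 6.09 to 6.67. A class of 3 kept RNAs listed by name (MALAT1, MEG3 and TUG1) had 11.4. Of the 12 hosts, 1 fell (DANCR) and 0 rose by limma, beside 0.459% called lower and 1.16% higher over all genes. Log2 fold changes were positive in 8 and negative in 4, beside 48.2% negative over all genes, with medians of 0.14 and 0.0093. Groups did not overlap in 2 hosts on the higher and 3 on the lower side, beside 11.2% and 8.56% of all genes. With 12 hosts these counts are a description. SNHG33 read 9.51, 9.61 and 9.44 on the scramble arrays and 10.00, 9.81 and 10.11 on the MYOSIN10 shRNA arrays. Its groups did not overlap, and its log2 fold change was 0.45 ± 0.11 (SE, n = 3 each; limma adjusted p = 0.0752). A further probe set of SNHG33 stood at 0.51, also without overlap. SNHG17, at 10.28, 10.42 and 10.10 and then 10.44, 10.51 and 10.67, had a small gap between the groups and a value of 0.27 (limma adjusted p = 0.266). Its other kept probe set, about as bright at 9.90 to 10.40, stood at 0.074 with overlapping groups.

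Of the hosts on the lower side, SNHG4 read 7.45, 7.14 and 7.29 and then 6.69, 6.59 and 6.37. The groups did not overlap, and the value was -0.74 ± 0.22 (SE, n = 3 each; limma adjusted p = 0.124). SNHG27, dimmer at 6.87, 5.78 and 6.43 and then 5.20, 5.66 and 4.62, stood at -1.19 (limma adjusted p = 0.197). It passed the filter on 4 arrays, among them every scramble array, so the filter favoured its gap. SNHG19 stood at -0.39 with overlapping groups, where scramble array 1 at 10.90 was the highest and the other 5 arrays lay between 9.93 and 10.21.

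The remaining hosts overlapped between groups. SNHG32, the brightest of all members, read 12.76, 12.53 and 12.57 and then 12.82, 12.69 and 13.01, a value of 0.22 (limma adjusted p = 0.305). SNHG10, SNHG28 and SNHG18 stood at 0.27, 0.19 and 0.19, EPB41L4A-AS1 at 0.093 and GAS5, an RNA known to accumulate when growth stops, at 0.015. GAS5 was dim by its own probe set, at 6.37 to 6.65. SNHG10, EPB41L4A-AS1, SNHG28, SNHG18 and GAS5 had the other sign when certain single arrays were left out.

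**Figure D3:**
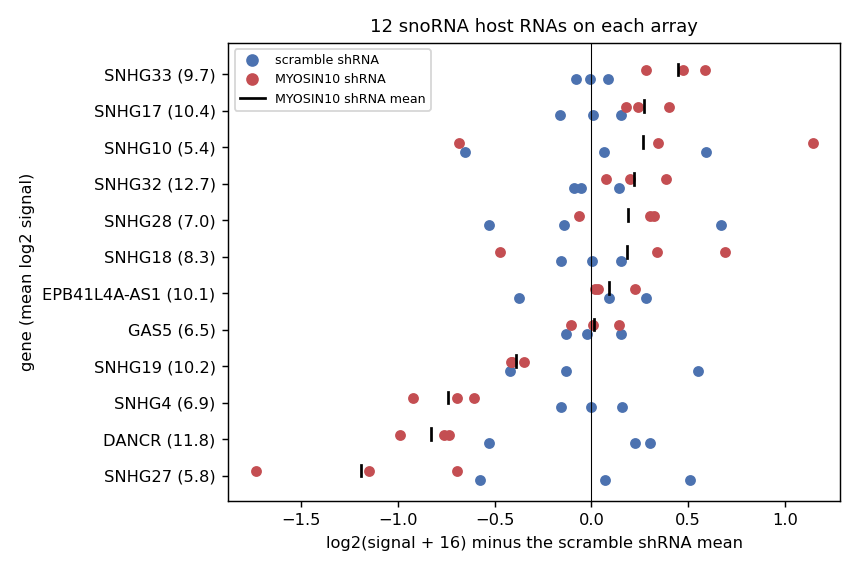
Log2(signal + 16) minus the gene's scramble shRNA mean (horizontal axis) for the 12 snoRNA hosts (vertical axis, mean log2 signal in brackets), 1 point per array, with black ticks at the MYOSIN10 shRNA mean. DANCR, SNHG4 and SNHG27 have all 3 MYOSIN10 shRNA points left of the scramble points, and SNHG33 and SNHG17 have them to the right. Groups did not overlap in 19.8% of all genes tested, and in 24% of those at or above the median signal.

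Many snoRNA hosts belong to a family of genes whose RNA starts with a C followed by pyrimidines, a tract that ties their translation or decay to growth signals. Windows of 50 bases, from 20 before the RefSeq start onward, are shown for hosts on both sides of 0, with the tract in capitals (C and at least 4 further C or T, beginning within 10 bases of the start, GRCh38.p14).
DANCR, chr4:52712374-52712423, plus strand: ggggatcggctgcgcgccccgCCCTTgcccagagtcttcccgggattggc
SNHG4, chr5:139274081-139274130, plus strand: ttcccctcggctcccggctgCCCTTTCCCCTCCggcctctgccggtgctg
SNHG19, chr16:2155329-2155378, minus strand: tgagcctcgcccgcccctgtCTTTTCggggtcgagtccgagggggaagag
SNHG32, chr6:31834896-31834945, plus strand: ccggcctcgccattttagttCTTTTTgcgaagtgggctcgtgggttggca
SNHG33, chr3:183447588-183447637, plus strand: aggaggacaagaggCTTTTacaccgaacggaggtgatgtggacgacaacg

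Such a tract within 10 bases of the start was found in 7 of the 12 hosts and in 33.5% of all 35116 windows. Only in SNHG4, SNHG19 and SNHG32 did it begin at the RefSeq start itself (position 0). It began at position 1 in DANCR, 3 in SNHG17 and -1 in SNHG18, so the listed DANCR RNA does not start with it. It occurred in DANCR and SNHG4 with negative values and in SNHG32 and SNHG33 with positive ones. In SNHG33 its 5 bases began at -6 relative to the RefSeq start and ended before it. That tract thus lies outside the RNA as RefSeq lists it.

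Among the other RNAs that the rule lists by name, TUG1, a nuclear RNA linked to chromatin regulation, read 11.48, 11.35 and 11.42 with scramble shRNA and 11.49, 11.43 and 11.14 with MYOSIN10 shRNA. The groups overlapped, and the log2 fold change was -0.062 ± 0.10 (SE, n = 3 each; limma adjusted p = 0.829). All 5 TUG1 probe sets had negative values, from -0.45 to -0.00048, and in 1 of them, at -0.35, the groups did not overlap. MEG3, an imprinted RNA, lay near the filter at 4.45 to 6.13 and stood at -0.64 ± 0.44 (SE, n = 3 each; limma adjusted p = 0.539).

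Antisense RNAs made up 5 of the 8 brightest members, and 0 of these 5 were called by limma, beside 1.62% of all genes. FGD5-AS1 read 12.06, 11.98 and 11.99 and then 12.09, 11.85 and 11.99, a log2 fold change of -0.033 (limma adjusted p = 0.897). KRT10-AS1 read 11.63, 11.39 and 11.65 and then 11.28, 11.28 and 11.16, without overlap, at -0.32 ± 0.093 (SE, n = 3 each; limma adjusted p = 0.12). ZBED5-AS1 and OIP5-AS1, the latter also known as Cyrano, stood at -0.21 each, and WAC-AS1 at 0.19. Chosen after their values were seen, other bright members without overlap were PRRT3-AS1 at 0.52 (limma adjusted p = 0.063), NNT-AS1 at 0.67 (0.0783), ZDHHC12-DT at 0.38 (0.0972), LINC01003 at -0.47 (0.12) and AFAP1-AS1 at -0.61 (0.126).

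Groups did not overlap in 104 members, 42 higher and 62 lower. That is 13.6% of the members beside 19.8% of all genes (5.48% against 11.2% higher, and 8.08% against 8.56% lower). These counts hold the 9 members kept through 1 group alone (6 higher and 3 lower), which cannot overlap, and 93 such genes over all. Without them it was 95 of 758 members, 36 higher and 59 lower, or 12.5%, beside 19.2% of all genes. Among the 55 bright members it was 19, or 34.5%, beside 24% of all genes in that range. An unadjusted limma p under 0.05 was reached by 66 members (8.6%, beside 14.9% of all genes). Log2 fold changes were negative in 56.6% of the members and 48.2% of all genes, with medians of -0.061 and 0.0093. On the array level, scramble array 1 had the highest member median, 6.51 against 6.27 to 6.38 on the others. The members' median log2 fold change came to -0.018 when scramble array 1 was left out and to -0.11 when scramble array 2 was.

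**Figure D4:**
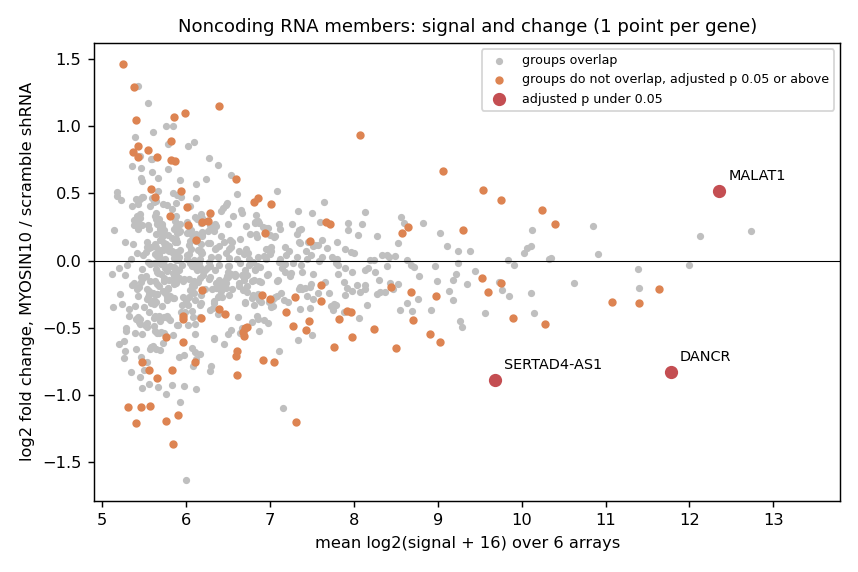
Log2 fold change (vertical axis) against mean log2(signal + 16) over 6 arrays (horizontal axis) for the 767 members, 1 point per gene, coloured by whether groups overlap and whether the limma adjusted p was under 0.05. The 3 called members lie at the bright end, and the widest scatter lies among the dim members on the left.

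Most of the large fold changes came from dim members. A 2-fold difference or more was found in 21 members (2.74%, beside 1.21% of all genes), 10 higher and 11 lower, and 2 of these were above the filter's level on all 6 arrays. Among the 55 bright members it was 0, beside 0.296% of all genes in that range. The members kept through the arrays of 1 group alone, which had to differ, hold 6 of the 21, and without such genes the share was 1.98%, beside 0.952% of all genes. They include CLSTN2-AS1, which had the highest log2 fold change at 1.47, with 4.29, 4.51 and 4.72 on the scramble arrays and 5.72, 6.28 and 5.92 on the MYOSIN10 shRNA arrays. TNS2-AS1 and LINC02873, at 1.29 and 1.05, were likewise kept through the MYOSIN10 shRNA arrays, and LIN28B-AS1, LINC00664 and TBX5-AS1, at -1.21, -1.09 and -1.08, through the scramble arrays. The gap between groups of these 6 was fixed by the filter, so their values are a description.

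Other dim members without overlap passed on 4 or 5 arrays, among them all 3 arrays of the group where they were higher. Without that group they would have failed the filter. The filter thus favoured a gap between groups, and their values too are a description. CIBAR1-DT, at 6.34, 6.68 and 6.55 and then 6.14, 4.80 and 4.53, stood at -1.37 ± 0.43 (SE, n = 3 each; limma adjusted p = 0.153). KMT2E-AS1 and LINC02616 stood at -1.15 and -1.09, with limma adjusted p-values of 0.133 and 0.271. On the higher side, ASMTL-AS1, LINC01711 and LINC01843 stood at 1.15, 1.10 and 1.07, and LINC01206 at 0.89, with limma adjusted p-values from 0.189 to 0.281. The filter level on the same scale was 5.56 to 5.66, and the means of these 7 over the 6 arrays lay between 5.46 and 6.39. ASMTL-AS1 was read by an _s_at probe set. Its other kept probe set, dimmer at 5.04 to 6.40, stood at 0.17 with overlapping groups.

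By class, 262 of 841 LINC genes passed the filter, with 121 positive and 141 negative values, a median of -0.034 and 0 called by limma. Antisense RNAs gave 378 of 780, with 159 positive and 219 negative values, a median of -0.075 and 1 called lower. Divergent RNAs gave 102 of 197, with 38 positive and 64 negative values, a median of -0.12 and 0 called. Intronic RNAs gave 10 of 25, with a median of 0.079 and 0 called. Over all genes tested, 1.16% were called higher and 0.459% lower, 48.2% of values were negative and the median was 0.0093. Another kept probe set existed for 138 members, and the brightest of these shared the sign of the one used in 74.

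A partner gene was tested for 400 of the 491 members named after one. Member and partner had the same sign in 221 pairs (55.25%), with a correlation of 0.10 over the 400 pairs, which share all 6 arrays. The same sign was found in 164 of 302 antisense pairs and 52 of 88 divergent pairs, and in 68 of 119 pairs (57.1%) whose starts lie head to head within 1000 bases. In 20 pairs both genes were at or above the median signal, with a correlation of 0.77, which became 0.39 over 18 pairs without SERTAD4-AS1 and NNT-AS1.

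Of the 400 partners, 5 rose and 0 fell by limma. The 5 are 1.25%, close to the 1.16% of all genes called higher, with 0.459% called lower over all genes, and none of their antisense RNAs was called. NINJ2, a cell adhesion gene, rose by 1.57 (limma adjusted p = 0.00313), and NINJ2-AS1 stood at -0.30 with overlapping groups. The other kept probe set of NINJ2-AS1, dimmer at 4.74 to 5.82, stood at 0.47 without overlap, so the sign depends on the probe set. PIK3CD, a catalytic subunit of phosphoinositide 3-kinase, rose by 0.93 (limma adjusted p = 0.00526), and PIK3CD-AS1 stood at 0.22. PDE7B, a cyclic AMP phosphodiesterase, rose by 0.93 (limma adjusted p = 0.0231), DNAJC9, a histone chaperone, by 0.61 (0.00277) and TRAM2, a protein of the endoplasmic reticulum membrane, by 0.57 (0.00859). Their antisense RNAs stood at -0.32, 0.31 and -0.047. TRAM2-AS1 had a mean of 8.72 over the 6 arrays, and the other 4 antisense RNAs had means between 5.58 and 6.33.

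**Figure D5:**
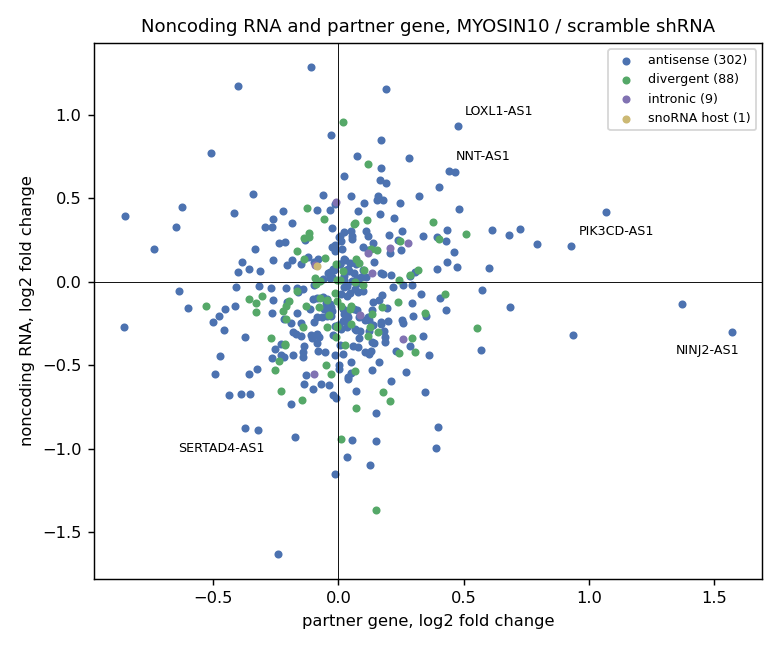
Log2 fold change of each noncoding RNA (vertical axis) against that of its partner gene (horizontal axis), MYOSIN10 shRNA over scramble shRNA, for 400 pairs coloured by class. The points scatter around 0 on both axes, with 221 pairs of the same sign, and NINJ2 is the partner farthest to the right at 1.57.

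Proteins linked to noncoding RNAs or their decay, and protein-coding genes that host snoRNAs, were read from 5 lists. By limma, 0 genes were called in each, beside 1.62% of all genes tested. At that share, 0 calls in lists this short say little about them. Of paraspeckle proteins, 13 of 14 were tested, 9 positive and 4 negative, with RBM14 at 0.46 (limma adjusted p = 0.061) and HNRNPH3 at -0.24 (0.146). Of proteins of snoRNA particles, 14 of 16 were tested, 7 positive and 7 negative, with NOLC1, a nucleolar chaperone, at -0.27 (0.128) and NAF1, an assembly factor, at 0.28 (0.299). Of nonsense-mediated decay factors, 10 of 16 were tested, 5 positive and 5 negative, with RBM8A at 0.12 (0.498) and DHX34 at -0.28 (0.526). Of subunits of PRC2, the complex that methylates histone H3 and binds many RNAs, all 11 were tested, 6 positive and 5 negative, with JARID2 at -0.44 (0.0801) and PHF19 at 0.19 (0.252). Of protein-coding snoRNA hosts, 21 of 40 were tested, 14 positive and 7 negative, with IPO7 at -0.19 (0.311) and RPS12 at 0.13 (0.385). The 5 medians lay between -0.013 and 0.069, beside 0.0093 over all genes. An unadjusted limma p under 0.05 was reached by 4, 2, 0, 4 and 1 genes in this order. These are out of 13, 14, 10, 11 and 21 tested, and over all genes the share was 14.9%. The lists were not tested as sets.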

How the data were processed

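The arrays were 1-colour Affymetrix arrays of 54675 probe sets, labelled with a 3' kit per the labels' protocols. The submitters' processing notes name MAS5, with version and target not given in the sources used here. Deposited values were on a log2 scale, as judged from their range. Each array was scaled to a common mean, so a change in total RNA would not show. Arrays carry no read depth, and their number, 3 per group, limits the precision.

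Here 16 was added on the linear scale before log2 was taken again, which understates the change of dim genes. Single symbols came from the platform annotation (41097 probe sets, with several symbols for 1801 and none for 11777), and 41043 were matched to RefSeq by Entrez number, which changed 0 symbols. The 40th percentile filter kept 33370 probe sets. The comparison used limma 3.58.1 under R 4.3.3 (lmFit, eBayes with a variance trend, two-sided) and Benjamini-Hochberg adjustment over 14174 genes. The test was checked on simulated data. Members and lists were chosen with earlier results of these data known. Named members are those called, up to 8 highest and 8 lowest uncalled without overlap, those listed by name, the SNHG genes, the 8 brightest, their partners and 2 genes per list. Alternatives covered the added constant, filter, normalization, probe set choice, variance model, replicate block and arrays left out.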

Additional observations from a re-analysis of the deposited data

How the results depend on the processing

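Members called numbered 3 in the main analysis, 1 with no filter, 1 with probe sets of a gene averaged, 0 with no variance trend (limma), 17 with array weights and 29 without both arrays numbered 2. For all genes (229), the counts were 126, 111, 7, 791 and 1224 in the same order. As shares of the members tested, this was 0.391% in the main analysis, then 0.0537%, 0.13%, 0%, 2.22% and 3.78%. All genes stood at 1.62%, then 0.637%, 0.783%, 0.0494%, 5.58% and 8.64%, above the members in each setting. For snoRNA hosts (1), the counts were 0, 0, 0, 2 and 3, and 0 with quantile normalization and with robust eBayes. For genes of the 5 lists (0), array weights gave 2 and leaving out both arrays numbered 2 gave 4. Arrays of the same number correlated at 0.0587, 0.163 and 0.0397 in their deviations, which does not pair all 3 numbers, although 0.163, between the arrays numbered 2, was the highest of the 9 correlations between groups. A fit with the replicate block called 15 members (1.96%), 2 hosts, 2 list genes and 611 genes in all (4.31%). MYO10 kept its direction and lost its call with no filter (-0.88, limma adjusted p = 0.0821), the mean of probe sets (-0.55, 0.149), no _s_at or _x_at probe sets (-0.58, 0.141), no variance trend (-0.88, 0.243) and robust eBayes (-0.88, 0.0565). With no variance trend, MALAT1, DANCR and SERTAD4-AS1 all lost their calls (limma adjusted p = 0.194, 0.272 and 0.182). MALAT1 also lost its call with averaged probe sets (0.45, limma adjusted p = 0.216) and with no _s_at or _x_at probe sets (0.81, 0.201). DANCR also lost it with no filter (-0.83, limma adjusted p = 0.108), quantile normalization (-0.83, 0.0563), averaged probe sets (-0.83, 0.0694) and robust eBayes (-0.83, 0.0785). SERTAD4-AS1 also lost it with no filter (-0.89, limma adjusted p = 0.0568). EPB41L4A-AS1 turned to -0.15 with the mean of probe sets. Without both arrays numbered 2, EPB41L4A-AS1 turned to -0.056, FGD5-AS1 to 0.013, SNHG10 to -0.14 and SNHG28 to -0.13. Leaving out 1 array at a time gave 0 to 25 members called (0% to 3.26%), 0 to 3 hosts and 0 to 3 list genes. The same runs called 66 to 964 genes in all (0.466% to 6.80%), with MYO10 from -1.12 to -0.75. MYO10 also lost its call in 4 of these 6 runs, with limma adjusted p-values of 0.0643 and 0.142 when scramble arrays 1 and 3 were dropped and 0.137 and 0.143 for arrays 1 and 3 of MYOSIN10 shRNA. Over the same runs, EPB41L4A-AS1 ranged from -0.095 to 0.23, FGD5-AS1 from -0.088 to 0.029, GAS5 from -0.050 to 0.093, SNHG10 from -0.17 to 0.74, SNHG18 from -0.068 to 0.51, SNHG28 from -0.077 to 0.52 and TUG1 from -0.13 to 0.043. The cause of these differences was not tested. Over all alternatives run, the members' median log2 fold change ranged from -0.11 to -0.018 and the share of partners with the same sign from 50.1% to 56.3%. Naming members by current RefSeq symbols gave the same members. Dim signals limit what 3 arrays per group can show for most members.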
